A study of Mus musculus with 4 samples.

Results

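The genes described here are those that the array reads with several probes. A probe counted when it was not a control, carried a RefSeq messenger RNA accession beginning with NM_, and was well above background on all 4 arrays, a call made by the scanner software. A gene was kept when at least 3 different probes of it counted, so the set was selected on measured signal but not on any difference between samples. It holds 472 genes and 1512 probes, out of 19699 genes that could be named through such an accession. On the array 905 genes had 3 or more named probes, and 433 of them were left out because fewer than 3 were detected on all 4 arrays. Just outside this limit lie 2549 genes with exactly 2 detected probes, and 400 members lie just inside it with exactly 3. A further 57 members had 4 probes, 10 had 5, 1 had 6 and 4 had 7. For 449 members every named probe on the array was detected, and 26 of the 1538 probes of member genes were not.

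The study asked how loss of 1 copy of Sf3b1 affects blood stem and progenitor cells. RNA came from bone marrow LSK cells (lineage-negative, Sca-1-positive, Kit-positive) of the C57BL/6 strain, sorted by flow cytometry, with 1 single-colour Agilent array for each of 4 groups. The native groups were wild-type and Sf3b1+/- mice aged 20 weeks, with 4 mice in the design. The transplanted groups were CD45.2+ LSK cells of wild-type or Sf3b1+/- donors, harvested 9 months after total bone marrow had been given to lethally irradiated CD45.1+ hosts, with 5 recipients in the design. Both Sf3b1+/- groups carried 1 null allele in every cell of the donor, not an Sf3b1 point mutation. Transplanted cells of both genotypes had also passed through irradiated hosts. The labels name neither the donors' age nor how many mice were pooled on an array, so the mice are not replicates of these measurements. With 1 array per group, differences between genotypes within a setting have no replicate check, and no p-value is given for them.

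SF3B1 is the largest protein of the SF3b complex, which belongs to the U2 small nuclear ribonucleoprotein and helps it hold the branch site of an intron before the 3′ splice site is chosen. Many mouse genes give several messenger RNAs through alternative exons, start sites or polyadenylation sites. Each array probe is a short oligonucleotide that reads 1 stretch of 1 or more of these messages, so 2 probes of a gene can report different transcripts. Probes of 1 gene can also differ because 1 of them is dim, binds a related gene or pseudogene, or lies far from the end where labelling starts. The files used here give each probe's accession but neither its sequence nor its position, so exons cannot be named, and which of these applies to a gene was not tested.

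On the arrays 47.7% to 51.5% of spots were well above background, and no spot was saturated. The 75th percentile of detected probes before scaling was 1652 and 1940.5 units on the wild-type and Sf3b1+/- arrays of native cells, and 1824 and 2686 on those of transplanted cells. Values below are scaled signals in these units after each array was set to the same 75th percentile. Sf3b1 itself is read by 1 probe and is therefore not a member. Its scaled signal was 436 and 328 in wild-type and Sf3b1+/- native cells (log2 difference -0.41) and 273 and 253 in transplanted cells (-0.11), lower in both Sf3b1+/- arrays. Among markers of LSK cells, Kit, Ly6a (Sca-1), Cd34, Flt3 and Ptprc (CD45) were detected on all 4 arrays. Of markers that the sort should remove, Cd8a was detected on none, Cd79a on 2, and Cd3e and at least 1 probe of Cd4, Itgam, Klrb1c and Siglech on all 4. The part of such cells in the results was not tested. In such bulk samples fewer cells of a type and less RNA per cell cannot be told apart.

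For each member, the log2 difference Sf3b1+/- minus wild type was taken for every probe, and the highest minus the lowest is called the range of the gene. Scaling an array moves all its probes alike and cannot change this range. In native cells the median range was 0.27, a 1.21-fold disagreement between the highest and lowest probe, with quartiles of 0.15 and 0.43. In transplanted cells it was 0.39 (1.31-fold), with quartiles of 0.22 and 0.59. The probes disagreed more in transplanted cells, where 315 of 472 members had the larger range. The probes of 63 members (13.35%) were at least 1.5-fold apart in native cells and those of 9 at least 2-fold. Among all 3021 genes with 2 or more detected probes the shares were 6.75% and 0.894%. In transplanted cells 120 members (25.42%) were at least 1.5-fold apart and 28 at least 2-fold, against 14.2% and 2.58% of the 3021 genes. A gene with more probes has more chances of a wide range, so these shares are not comparable as they stand. Pair by pair the shares were close: 5.92% of the 1741 probe pairs of members were at least 1.5-fold apart in native cells, beside 5.53% of the pairs of 2-probe genes, and 12% beside 12.1% in transplanted cells. Ranges just above and below 1.5-fold in native cells were those of Rnf26 and Ap5z1 (both 0.59) and of Cdv3 and D3Ertd751e (both 0.57).

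The same measure for transplanted minus native cells, which shares its arrays with the genotype differences, gave a median range of 0.40 in wild type and 0.47 in Sf3b1+/-. At least 1.5-fold apart were 124 and 176 members. The genotype difference in native cells was thus the comparison in which probes of a gene disagreed least.

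**Figure D1:**
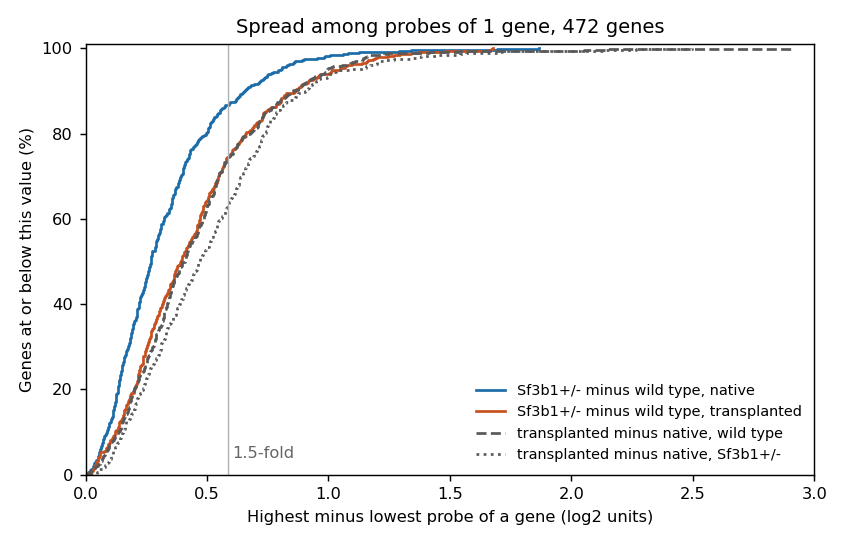
Cumulative share of the 472 genes (vertical axis, %) against the highest minus lowest probe of the gene (horizontal axis, log2 units), for both genotype differences (solid lines) and both setting differences (broken lines). The line for native cells rises first, with a median of 0.27, and the other 3 have medians of 0.39, 0.40 and 0.47.

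Dim signal went with wide disagreement. Among the 400 members with 3 probes, the 100 whose dimmest probe was faintest (under 74.7 units) had median ranges of 0.43 in native and 0.50 in transplanted cells. The 100 whose dimmest probe was brightest (442 units or more) had 0.14 and 0.24. Spots that the array prints several times showed the same dependence: the SD between replicate spots was 0.26 log2 units below 50 units (13 probes), 0.14 from 50 to 200 (58 probes), 0.08 from 200 to 1000 (70 probes) and 0.06 above that (104 probes). For a member's range this spot error had a median of 0.17, and 133 members in native and 240 in transplanted cells had a range above 2 such errors. It covers printing and scanning within an array, not RNA preparation or mice. It is the error of 1 pair of probes, while the range takes the highest and lowest of 3 or more. A range thus passes 2 such errors more easily than a gap between 2 fixed probes, so the 133 and 240 are a description. Restricting the probes to those with at least 100 units on all 4 arrays left 280 members, of which 13 were 1.5-fold apart in native and 46 in transplanted cells. With another background correction (normexp with an added offset of 50 units) the counts over all 472 members were 13 and 79.

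**Figure D2:**
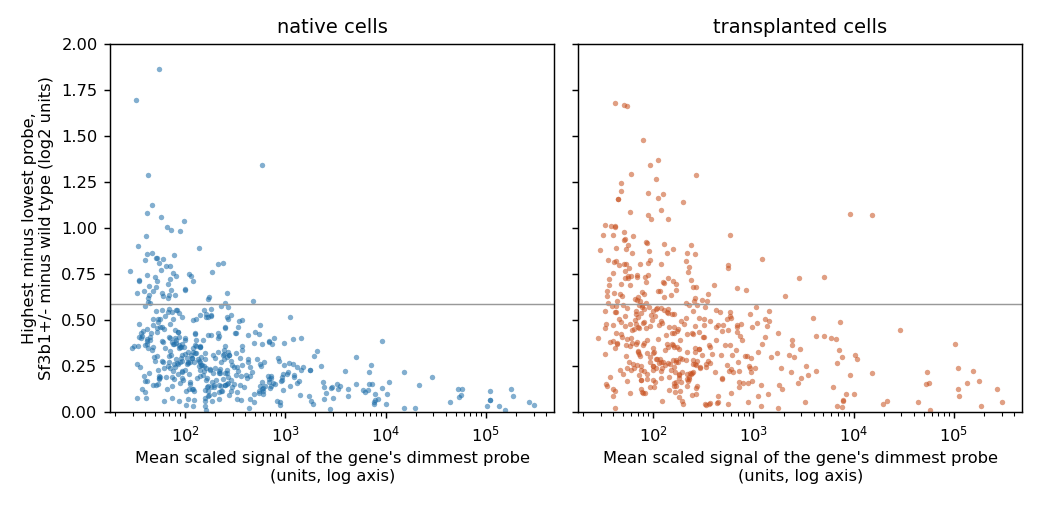
Range of each of the 472 genes in Sf3b1+/- minus wild type (vertical axis, log2 units, grey line at 1.5-fold) against the mean scaled signal of the gene's dimmest probe (horizontal axis, units, log scale), in native and transplanted cells. Wide ranges lie mostly on the left; none of the 77 genes whose dimmest probe was at least 1000 units reached 1.5-fold in native cells, and 6 did in transplanted cells.

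Disagreement also went with the accession that a probe carries. A probe designed against 1 RefSeq transcript can read a part that another transcript of the gene lacks. Of the members, 130 had probes with 2 or more accessions. The 340 probe pairs with different accessions had a median gap of 0.20 in native and 0.28 in transplanted cells, and 10.9% and 20.0% of them were at least 1.5-fold apart. The 1401 pairs that shared an accession had median gaps of 0.13 and 0.20, and 4.71% and 10.1% were at least 1.5-fold apart. Within the 130 genes themselves, the 168 pairs that shared an accession had 0.15 and 0.22, close to the pairs of other genes. Part of the contrast goes with signal, since the dimmer probe of a pair had a median of 175 units for different and 333 for shared accessions. With the dimmer probe between 200 and 1000 units, 9.40% of 117 pairs with different accessions and 1.42% of 422 with a shared one were at least 1.5-fold apart in native cells, and 15.4% and 8.06% in transplanted cells. With the dimmer probe below 50 units the native shares ran the other way, 15.8% of 38 and 23.1% of 91. At 1000 units or more they did not differ in native cells, 0% of 41 and 0% of 455. The transplanted shares there were 2.44% and 3.52%. By this share, pairs with different accessions were thus not the wider ones at every signal. Median gaps at 1000 units or more were still larger for different accessions: native 0.10 beside 0.08, transplanted 0.19 beside 0.14. Below 50 units the medians were close: native 0.337 beside 0.339, transplanted 0.39 beside 0.38. These are descriptions, because pairs of 1 gene share probes and no test over them was run. By median, the number of NM_ transcripts that RefSeq lists for a gene showed less. The 155 3-probe members with 1 listed transcript had median ranges of 0.27 and 0.36, and the 245 with 2 or more had 0.26 and 0.37. At least 1.5-fold apart were 19 of the 155 and 31 of the 245 in native cells. In transplanted cells it was 28 of the 155 and 64 of the 245.

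The native and transplanted pairs of arrays share no array, so a gap between the same 2 probes that has the same sign in both is the nearest thing to a repeat here. In 17 of the 472 members the same 2 probes were at least 1.5-fold apart the same way in both settings. All 3021 genes, members included, held 54 (1.79%), and the 2549 genes with 2 detected probes held 37. A member has more probe pairs and so more chances of a repeated gap, so these counts are not comparable as they stand. The 17 were Ptprj, Itsn1, Casz1, Zfp467, Tgif2, Psd3, Ifnar1, Synj2, Gfra4, Cdk12, Rpap2, Cnot2, Lin52, Nsd3, Cflar, Zfx and Ap5z1. In 9 of them the probes of the pair carried different accessions. In 6 the dimmer probe was under 50 units, and in 6 both probes were at least 100 units. Restricted to probes of at least 100 units on all 4 arrays the count was 5, namely Ap5z1, Itsn1, Nsd3, Rpap2 and Zfp467, and with the normexp correction it was 4, Itsn1, Ptprj, Tardbp and Zfp467. Only Itsn1 and Zfp467 were in all 3 of these counts. The 12 genes with the largest such gaps were chosen for them, so their values are a description.

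**Figure D3:**
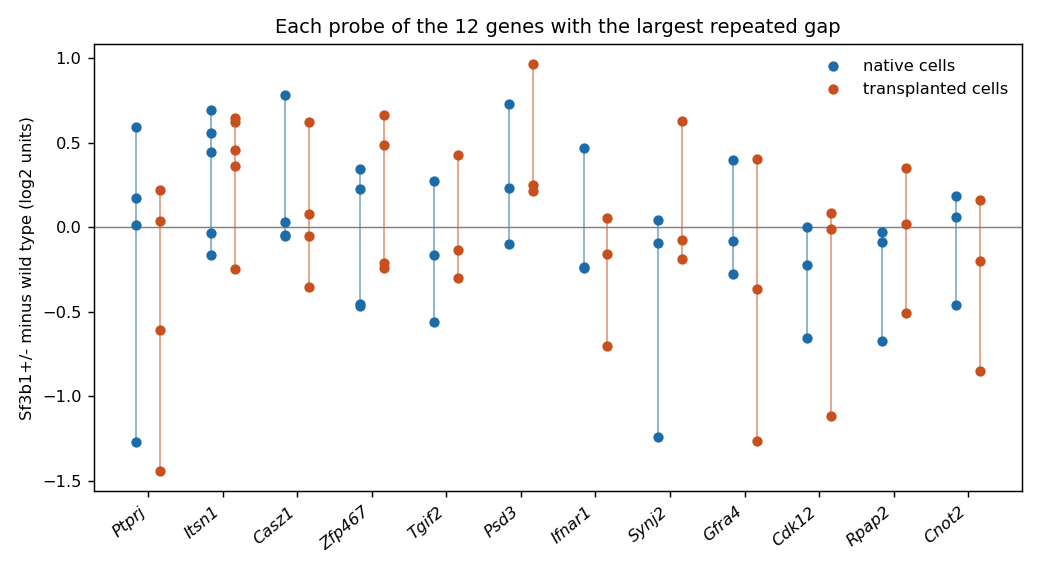
Log2 difference Sf3b1+/- minus wild type (vertical axis) of each probe of the 12 genes with the largest gap repeated in both settings, for native (left point of each pair of columns) and transplanted cells (right). Each point is 1 probe on 1 array pair, and the line joins the lowest and highest probe; Ptprj has the widest range, 1.87 and 1.66.

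Ptprj, a receptor-type tyrosine phosphatase of blood and endothelial cells (also called CD148), had the widest repeated gap. Values for a probe are given from native to transplanted cells, and within a setting wild type before Sf3b1+/-. A pair of log2 differences is Sf3b1+/- minus wild type, native before transplanted. Probe A_55_P1992104, designed against NM_001135657, read 129.8, 53.6, 65.9 and 24.2 units, a log2 difference of -1.27 in native and -1.44 in transplanted cells. Probe A_55_P1992099 of NM_008982 read 749.8, 756, 510.2 and 524 units, differing by 0.01 and 0.04. The brightest Ptprj probe was therefore flat between genotypes while the first was lower in both Sf3b1+/- arrays. The other probe of NM_008982, A_55_P2038130, read 53.9, 81.2, 42.9 and 49.9 units (0.59 and 0.22). The other probe of NM_001135657, A_55_P2038139, read 62.2, 70.0, 69.8 and 45.8 units (0.17 and -0.61). The 2 probes of NM_001135657 thus disagreed in native cells, where 1 was lower and the other slightly higher. The widest gap was 1.87 in native and 1.66 in transplanted cells, with a spot error of 0.29, and for the same probes it was 1.04 and 0.58 after normexp.

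Zfp467, a zinc finger transcription factor, had the clearest split by accession. Both probes of NM_020589 were higher in Sf3b1+/- cells: A_55_P2175400 read 452, 529, 431 and 604 units and A_55_P2175405 read 197, 249.9, 204 and 324. Both probes of NM_001085417 were lower: A_55_P2126950 read 1349, 975, 1089 and 939 units and A_55_P2126951 read 716, 522, 589 and 498. The log2 differences were 0.23 and 0.34 in native and 0.49 and 0.66 in transplanted cells for NM_020589. For NM_001085417 they were -0.47 and -0.45 in native and -0.21 and -0.24 in transplanted cells. In each setting the probes of an accession lay within 0.18 of each other, while the accessions were 0.75 apart in native and 0.80 apart in transplanted cells. All 4 probes read 197 units or more on every array, and after normexp the widest gap was 0.64 and 0.63.

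Itsn1 encodes intersectin, a scaffold of endocytosis made in a short and a long form. Of its 5 probes, A_55_P2431118 read 603, 886, 542 and 848 units and A_55_P1994608 read 182, 294, 207 and 318, both of NM_001110275 and both higher in Sf3b1+/- cells (0.55 and 0.65, and 0.69 and 0.62). A_52_P396498 of NM_010587 was also higher, at 35.5, 48.4, 36.7 and 50.3 units (0.45 and 0.46). A_55_P1994586 of NM_001110275 read 138, 135, 109 and 140.3 units, differing by -0.04 and 0.36. The last probe, A_55_P1994603 of NM_010587, read 54675, 48718, 66055 and 55729 units and was lower (-0.17 and -0.25). It was far brighter than the other probes, and whether it reads Itsn1 alone was not tested. Among the remaining 4 probes those of either accession were higher in the Sf3b1+/- transplanted array, so the widest gap of Itsn1, 0.86 in native and 0.87 in transplanted cells, has that 1 bright probe as its low end.

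**Figure D4:**
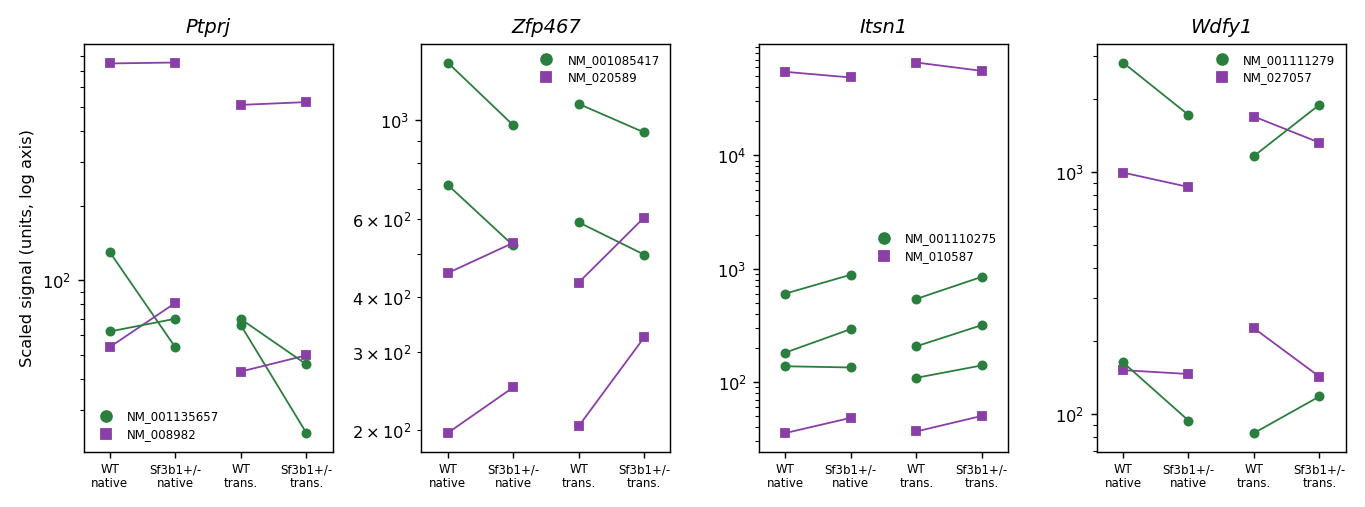
Scaled signal (vertical axis, units, log scale) of every probe of Ptprj, Zfp467, Itsn1 and Wdfy1 on the 4 arrays, coloured by the RefSeq accession of the probe; a line joins wild type and Sf3b1+/- of 1 setting, and each point is 1 array. The accessions of Zfp467 run in opposite directions in both settings, and those of Wdfy1 change places between native and transplanted cells.

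Casz1, a zinc finger transcription factor, had 1 dim probe that was higher in Sf3b1+/- cells: A_55_P1995141 of NM_001159344 read 37.3, 64.2, 43.0 and 66.3 units (0.78 and 0.62). A second probe of the same accession, A_55_P2023314, read 158, 153, 117 and 91.5 units (-0.05 and -0.36), and the brightest, A_55_P1995135 of NM_027195, read 515, 525, 453 and 437 (0.03 and -0.05). The Casz1 gap was therefore set in native cells by 1 probe below 70 units, with the others between -0.05 and 0.03. Tgif2, a homeobox repressor of TGF-β signalling, was similar in being dim: A_55_P1972590 read 49.8, 60.3, 43.1 and 57.8 units and A_55_P2074887 read 67.0, 45.5, 61.0 and 49.5, a gap of 0.83 in native and 0.73 in transplanted cells with a spot error of 0.29. Its brightest probe, A_66_P121285, lay between them at -0.16 and -0.14. All 3 Tgif2 probes carry 1 accession. Psd3, an exchange factor for the small GTPase ARF6, had a probe, A_55_P2138177, of 79.0, 131, 64.4 and 125 units, higher in both Sf3b1+/- arrays (0.73 and 0.96). The brightest Psd3 probe, A_51_P275123, also pointed up but less (0.23 and 0.21), and the remaining one, A_55_P2138174, differed by -0.10 and 0.25.

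Ifnar1, a subunit of the type I interferon receptor, was lower by its brightest probe, A_55_P2036337, which read 853, 725, 729 and 653 units (-0.23 and -0.16). The dim A_55_P2438722 read 42.8, 59.3, 52.9 and 55 units and was higher (0.47 and 0.06), and A_55_P2454784 read 122, 103, 167 and 102 and was lower (-0.24 and -0.71). These last 2 probes, both of NM_010508, made the repeated gap of 0.71 in native and 0.76 in transplanted cells. Synj2, an inositol phosphatase of membrane traffic, had 3 probes of 3 accessions. Its widest native gap came from A_55_P2142064, which read 89.3, 37.7, 81.0 and 76.9 units (-1.25 and -0.08), and its widest transplanted gap from A_55_P2142072, which read 55.1, 56.8, 25.8 and 39.9 (0.04 and 0.63). Different probes thus moved in the 2 settings, though their order was the same. Gfra4, a receptor of the GDNF family, had A_55_P2039196 of NM_001271002 at 21301, 20124, 31139 and 12937 units, with a log2 difference of -0.08 in native and -1.27 in transplanted cells. Its repeated gap lay between the dim probes A_55_P2039190 and A_55_P1984118, both of NM_020014, at 0.68 in native and 0.77 in transplanted cells.

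In Cdk12, Rpap2 and Cnot2, 1 probe with an accession of its own was lower in both settings, while the other probes lay between -0.22 and 0.35. Cdk12 is a kinase of the RNA polymerase II tail. A_55_P1999187 of NM_026952 read 48.7, 30.9, 86.3 and 39.8 units (-0.66 and -1.12), while A_52_P309737 of NM_001109626 read 122, 122, 96.8 and 102. Rpap2 is a phosphatase of the same tail. A_65_P03606 of NM_001163462 read 332, 208, 321 and 225 units (-0.68 and -0.51), while A_51_P378558 of NM_144911 read 730.4, 687, 769 and 778 (-0.09 and 0.02). Rpap2 was among the brighter of these genes, with every probe above 200 units. Cnot2, a subunit of the CCR4-NOT deadenylase, had A_65_P11816 of NM_001037848 at 44.2, 32.1, 39.5 and 21.9 units (-0.46 and -0.85), while A_55_P2134852 of NM_001037846 read 1680.2, 1909.6, 1472 and 1646 (0.18 and 0.16). The low Cdk12 and Cnot2 probes were dim, and their gaps had spot errors of 0.42 and 0.38.

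After normexp the gaps of these genes kept their direction but most were smaller by over 1.5 times in at least 1 setting. The native and transplanted gaps became 0.18 and 0.35 for Tgif2, 0.30 and 0.38 for Ifnar1, 0.36 and 0.57 for Casz1, and 0.62 and 0.04 for Synj2. They became 0.26 and 0.61 for Cdk12, 0.39 and 0.65 for Gfra4, and 0.48 and 0.50 for Psd3. Those of Itsn1 (0.61 and 0.63), Rpap2 (0.48 and 0.74) and Cnot2 (0.48 and 0.70) moved by less than 1.5 times, as did those of Zfp467.

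Of the 5 other repeated gaps, Nsd3 and Cflar are described with their lists. Lin52, a subunit of the MuvB complex that controls cell-cycle genes, had the dim A_66_P101514 at 37.2, 23.6, 50.3 and 32.6 units (-0.66 and -0.63) and A_55_P1989928 of the same accession at 394, 411, 405 and 407. Zfx, an X-linked zinc finger transcription factor of stem cells, was lower by all 4 probes in both settings, from -0.74 to -0.03 in native and from -0.78 to -0.19 in transplanted cells. Its lowest probe, A_51_P358953, was dim, at 49.2, 29.4, 42.5 and 24.8 units, and its brightest, A_55_P2048036, was the nearest to 0. Ap5z1, a subunit of the AP-5 adaptor, had A_55_P1987364 at 602, 787, 922 and 1010.1 units (0.39 and 0.13) and the brighter A_55_P1955857 at 9579.6, 8323, 11407 and 8225 (-0.20 and -0.47), both of NM_172725. The Ap5z1 probes thus pointed in opposite directions in both settings at signals of 602 units or more.

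At least 2 probes on each of 2 accessions were present in 15 members, so that each accession was read by more than 1 probe. The probes of the 2 accessions did not overlap in 8 of these 15 genes in native and in 5 in transplanted cells. In 3 genes they were separate the same way in both: Zfp467, Dnajb6 and Lsm6. So few probes per accession can also be separate by order alone, and no reference share was computed, so these counts are a description. Dnajb6, a chaperone with a long and a short form, had both probes of NM_001037941 lower (-0.41 and -0.44 for A_52_P630493, -0.28 and -0.29 for A_55_P1964076), while those of NM_001037940 differed by -0.12 and -0.05 and by -0.03 and 0.02. The accessions of Dnajb6 were 0.27 apart in native and 0.35 in transplanted cells, at signals of 506 units or more throughout. Lsm6, a member of the LSm ring that binds U6 RNA and decapping complexes, had the probes of NM_001191004 lower than those of NM_030145 by 0.27 and 0.22 on average. The 2 NM_030145 probes were further apart than that, by 0.33 in native and 0.28 in transplanted cells. In transplanted cells the nearest Lsm6 probes of the 2 accessions were at -0.29 and -0.27, so the separation was narrow. Wdfy1, an endosomal FYVE-domain protein, was separate in both settings but in opposite ways. Its NM_001111279 probe A_55_P2092730 read 2830.1, 1719, 1163 and 1895 units (-0.72 and 0.70) and A_66_P118236 read 163, 93.8, 83.2 and 118 (-0.80 and 0.50). The NM_027057 probes A_55_P2070686 and A_52_P511821 differed by -0.20 and -0.36 and by -0.05 and -0.67. Both NM_001111279 probes of Wdfy1 were thus lower in Sf3b1+/- native cells and higher in Sf3b1+/- transplanted cells, where the wild-type array was the low one.

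Most wide gaps were seen in 1 setting. Of the 63 members at least 1.5-fold apart in native cells, 16 had the same probes at least 1.5-fold apart the same way in transplanted cells and 8 the other way, and the median gap of these probes fell from 0.75 to 0.30. The order of the extreme probes was kept in 46 of the 63 (73.02%), beside 331 of all 472 members (70.13%), so a wide native gap went with the same order about as often as any native gap. Of the 120 members at least 1.5-fold apart in transplanted cells, 14 had the same probes that far apart the same way in native cells, 9 the other way, and 85 (70.83%) kept the order, beside 69.70% of all members. Opposite gaps of at least 1.5-fold were found in 9 of the 472 members, beside 0.761% of the 3021 genes, members included. The 2549 genes with 2 detected probes held 14. Members have more probe pairs here too, so these counts are not comparable as they stand. Across all 1512 probes, the deviation of a probe from its gene's mean in native cells correlated with that in transplanted cells with r = 0.27 (Spearman 0.34). Over the 1165 probes of at least 100 units on all 4 arrays that had another such probe in their gene, it was 0.38 (0.41). The probes of a gene share their mean and each probe shares its sequence between settings, so these are descriptions.

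**Figure D5:**
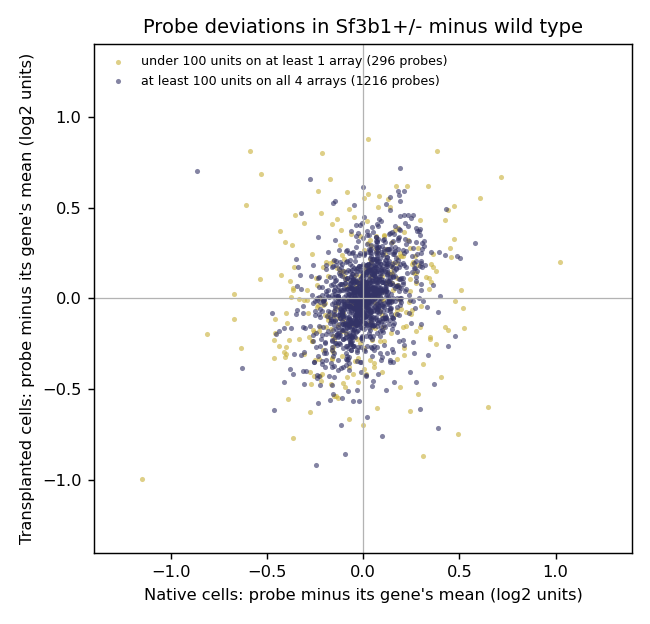
Deviation of each of the 1512 probes from the mean of its gene in Sf3b1+/- minus wild type, native cells (horizontal axis, log2 units) against transplanted cells (vertical axis, log2 units). Colours split probes by whether the processed signal before scaling was at least 100 units on all 4 arrays (1216 probes) or not (296 probes); the cloud is tilted upward (r = 0.27), with wide scatter among the dim probes.

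The widest native ranges that were not repeated belonged to dim probes in most cases. Cdc42bpa, a kinase that acts with CDC42 on the cytoskeleton, had a range of 1.69 and 0.31: A_55_P2129092 read 30.7, 96.3, 31.1 and 48.9 units and A_55_P2096402 of the same accession read 29.1, 28.1, 33.5 and 42.3. The Sf3b1+/- native array was the high one for the first probe, while its brightest probe, A_55_P2096395, was higher by 0.27 and 0.37. Usp31, a deubiquitinase, had a range of 1.13 and 0.49. In native cells A_55_P2026079 was its low end, at 68.1, 45.1, 34.9 and 50.3 units (-0.60 and 0.52). A_52_P452019 was the high end, at 41.9, 60.6, 34.5 and 57.2 units (0.53 and 0.73). Cplx2, a complexin of vesicle fusion, was bright. A_51_P485161 read 1544, 563, 264 and 506 units (-1.45 and 0.94), while the brightest, A_55_P2067960, read 16372, 15125, 19589 and 19978 (-0.11 and 0.03). Another Cplx2 probe, A_55_P1962603, read 2297, 1465, 2136 and 2132 units, lower on the Sf3b1+/- native array alone. All 4 Cplx2 probes carry 1 accession, so the split is not one between accessions.

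In transplanted cells Plagl1, Gfra4, Ptprj, Wdfy1 and Dffa were among the genes with the widest ranges. Plagl1 is an imprinted zinc finger gene, and its 4 probes of 1 accession fell into pairs. A_55_P1961968 read 78.4, 40.1, 50.9 and 147 units (-0.97 and 1.53) and A_52_P532456 read 67.3, 44.6, 40.8 and 117 (-0.59 and 1.52). A_55_P1961965 and A_55_P2153251 read between 38.2 and 69.1 units and differed by -0.07 and -0.15 and by 0.11 and -0.03. The first pair was thus higher than wild type on the Sf3b1+/- transplanted array and lower on the Sf3b1+/- native array, while the second pair differed little. Dffa, the inhibitor of caspase-activated DNase made in a long and a short form, had A_52_P172563 of NM_001025296 at 97.3, 115, 70.4 and 149 units (0.24 and 1.08). Its probes of NM_010044, A_51_P141190 and A_55_P2066414, differed by 0.11 and -0.26 and by 0.29 and -0.21, higher in native and lower in transplanted Sf3b1+/- cells.

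Genes whose probes all moved together by 1.5-fold were few. In native cells all probes of a gene had 1 sign in 216 members and both signs occurred in 256; in transplanted cells the counts were 239 and 233. At least 1 probe was 1.5-fold away in 45 members in native and 116 in transplanted cells, and a gene had 1 probe that far up and another that far down in 1 and 3 members. Where the brightest probe of a gene was at least 1.5-fold away (9 and 26 members), another probe moved as far in the same direction in 5 and 11. All probes were at least 1.5-fold higher in 0 members in native and 2 in transplanted cells, beside 0.0993% and 1.79% of the 3021 genes. All were at least 1.5-fold lower in 1 and 0 members, beside 0.894% and 1.19%. The 1 in native cells was DXBay18, a gene known by its locus symbol, with differences of -0.67, -0.81 and -0.93, and from -0.26 to -0.16 in transplanted cells. Ccm2l, a scaffold gene related to Ccm2 of endothelial cells, was higher in Sf3b1+/- transplanted cells by all 3 probes, at most by 1.57. Its brightest probe, A_55_P1981836, read 599.9, 520.2, 462 and 1304 units, so only the Sf3b1+/- transplanted array stood out. Phactr1, a regulator of actin and of protein phosphatase 1, was higher there by 1.28, 1.11 and 0.96, and by 0.38, 0.22 and 0.94 in native cells. No member had all probes 1.5-fold away the same way in both settings.

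The members with the most probes are abundant housekeeping genes, several of which have related copies or pseudogenes that a probe may also read. The 7 probes of Rpl17, a ribosomal protein, were all lower in both Sf3b1+/- arrays, from -0.32 to -0.19 in native and from -0.75 to -0.39 in transplanted cells. The 7 probes of Gapdh, a glycolytic enzyme, differed by -0.07 to 0.23 in native and by 0.13 to 0.86 in transplanted cells. All 7 were higher on the Sf3b1+/- transplanted array, the most for A_55_P1994258, at 3866, 4542, 4636 and 8392 units, and the brightest, A_55_P2186027, read 127936, 131009, 105254 and 141857. The 7 probes of Hmgb1, a chromatin protein, ran from -0.17 to 0.12 and from -0.27 to 0.39, and its brightest, A_55_P2032708, was lower (-0.16 and -0.25). Hnrnpa3, an RNA-binding protein with 7 probes, had ranges of 0.37 and 0.54. The 6 probes of Nsa2, a ribosome biogenesis factor, lay within 0.19 in native cells, and in transplanted cells A_55_P2085616 was at -0.53 and A_55_P1993761 at 0.30. Over both settings together, the closest agreement among genes with 4 or more probes was that of Rps27, another ribosomal protein: its 4 probes differed by -0.36 to -0.28 in native and by -0.57 to -0.54 in transplanted cells. Kpna2, an importin, had ranges of 0.15 and 0.05, Hmgn2, a nucleosome-binding protein, 0.07 and 0.18, and Rpl7 0.08 and 0.22.

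Lists of genes with known transcript forms or roles in splicing held 38 members in all. Of these 38, 6 (15.79%) were at least 1.5-fold apart in native and 13 (34.21%) in transplanted cells, with median ranges of 0.28 and 0.47, beside 0.27 and 0.39 for all members. Members and lists were both chosen with earlier results known, so these counts support no pattern. Of the splicing factors, the SR proteins gave 3 members, of which 1 was 1.5-fold apart in native and 0 in transplanted cells. That 1 was Srsf10, whose A_55_P1978810 of NM_001080387 read 47.9, 82.2, 99.1 and 93.7 units (0.78 and -0.08), the wild-type native array being the low one. The 3 probes of Srsf3 lay within 0.14 in both settings, and those of Srsf1, the founding SR protein, within 0.24 and 0.29. The core spliceosome list gave Sf1, Ddx5 and Snrpd2, with 0 and 1 past 1.5-fold. Sf1 encodes the branch-point binding protein that precedes the U2 particle. Its A_52_P618904 of NM_011750 read 91.2, 73.8, 127 and 81.6 units (-0.31 and -0.64) and A_52_P610403 of NM_001110791 read 939.9, 846, 1119.7 and 1317 (-0.15 and 0.23). The brightest Sf1 probe, A_55_P2168761, differed by 0.05 and -0.11. Ddx5, an RNA helicase, was lower by all 3 probes in both settings, from -0.42 to -0.27 and from -0.55 to -0.06, and Snrpd2, a core Sm protein, from -0.24 to -0.10 and from -0.29 to -0.23.

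The hnRNP and RNA-binding list gave 7 members, with 1 past 1.5-fold in each setting and none repeated. Tardbp encodes TDP-43, which regulates splicing and its own message. Its A_65_P18570 of NM_145556 read 91.8, 57.2, 148 and 112 units (-0.68 and -0.40), A_55_P2005135 of NM_001008546 read 614, 482, 713 and 573 (-0.35 and -0.32), and the brightest, A_55_P1980180 of NM_145556, read 18452, 23590.0, 18716 and 20017 (0.35 and 0.10). The bright Tardbp probe was thus higher and the other two probes lower in both settings, a gap of 1.04 in native and 0.50 in transplanted cells. Qk, the quaking RNA-binding protein, had ranges of 0.50 and 0.60. Foxp1 and Map3k7 were the only members on the list of transcripts reported as sensitive to SF3B1, and neither reached 1.5-fold. Map3k7, the TAK1 kinase, ran from -0.09 to 0.14 in native and from -0.36 to 0.10 in transplanted cells. Foxp1, a forkhead factor of lymphoid cells, ran from -0.12 to 0.07 and from -0.19 to -0.11.

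Among blood regulators 1 of 4 members passed 1.5-fold in each setting, Tet3 in native and Cd44 in transplanted cells. Cd44, an adhesion receptor known for its variant exons, was lower by all 4 probes of NM_009851 in both Sf3b1+/- arrays. Its brightest probe, A_55_P2064043, read 3994, 3509, 2916 and 2727 units (-0.19 and -0.10), A_55_P2166501 read 1584, 1266, 1649.8 and 1092 (-0.32 and -0.60) and A_55_P2166488 read 406, 288, 384 and 167 (-0.50 and -1.20). The dimmest, A_55_P2166486, read 131, 91.8, 166 and 64.6 (-0.51 and -1.36). In transplanted cells the size of the Cd44 difference thus ran from -0.10 to -1.36 depending on the probe, larger the dimmer the probe. Tet3, a methylcytosine dioxygenase, had a range of 1.06 and 0.27 from probes of 41.3 to 152 units. Dnmt3b, a DNA methyltransferase, was higher by all 3 probes in both settings, from 0.19 to 0.47 and from 0.08 to 0.38.

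Of the 2 apoptosis genes, Birc5 (survivin) had ranges of 0.21 and 0.24 and Cflar was among the repeated gaps. Cflar encodes c-FLIP, an inhibitor of caspase-8 made in a long and a short form. A_55_P1983468 of NM_009805 read 848, 610.1, 764 and 573 units (-0.48 and -0.41), while A_52_P226929 of NM_207653 read 225, 299, 206 and 237 (0.41 and 0.20) and A_55_P1983459 of the same accession read 54.9, 79.3, 63.0 and 68.4 (0.53 and 0.12). The NM_009805 probe of Cflar was lower and both NM_207653 probes were higher in both settings. The signalling and cytoskeleton list gave 8 members, of which 1 was 1.5-fold apart in native and 4 in transplanted cells. Tpm1, a tropomyosin with many forms, had 4 probes of 4 accessions. A_55_P2032192 of NM_001164249 read 258, 325, 314 and 492 units (0.33 and 0.65), A_55_P2078680 of NM_001164251 read 155, 199, 195 and 216 (0.36 and 0.15) and A_55_P2187053 of NM_001164255 read 858, 809, 952 and 741 (-0.09 and -0.36). Insr, the insulin receptor, had ranges of 0.45 and 1.01.

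The chromatin list gave 10 members, of which 1 was 1.5-fold apart in native and 5 in transplanted cells. Nsd3, a histone methyltransferase gene that also makes a short form without the catalytic domain, had A_55_P2298029 of NM_001081269 at 227, 282, 279 and 312 units (0.31 and 0.16) and A_55_P2060459 of NM_001001735 at 192, 156, 198 and 140.1 (-0.30 and -0.50). The brightest Nsd3 probe, A_55_P2060454 of NM_001001735, read 2087, 2154, 1778 and 1522 (0.05 and -0.22). Probes of the 2 Nsd3 accessions were thus ordered the same way in both settings. Chd2, a chromatin remodeller, was lower by all 4 probes in both settings, from -0.70 to -0.28 and from -0.86 to -0.18. Ncor1, a nuclear receptor corepressor, had 3 probes of 3 accessions with a range of 0.35 and 1.05.

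Disagreement that followed the genotype over both settings was tested with limma's diffSplice, which asks whether probes of a gene differ in their genotype effect in a model of genotype and setting over all 4 arrays. It was fitted to all 3021 genes with 2 or more detected probes. After Benjamini-Hochberg adjustment 0 of 3021 genes were called (0%), members included, and the lowest adjusted p of a member was 0.548. At an unadjusted p under 0.05 there were 231 genes (7.65%), 50 of them members (10.59% of 472). The 8 members with the smallest unadjusted p in diffSplice were Ptprj (0.000864), Itsn1 (0.0026), Casz1 (0.0027), Zfp467 (0.0032), Cdk12 (0.0054), Tgif2 (0.0063), Cflar (0.0082) and Tardbp (0.0091), and none of them passed the adjustment. The model has 1 residual degree of freedom per probe, the change of its genotype difference between settings, so such a change counts as error. Probes of a gene sit on the same 4 arrays, so these p-values are approximate. They measure only that spread in these samples, which may be technical. With Simes p-values over the probes of a gene, limma again called 0 genes, with 60 members at an unadjusted p under 0.05.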

How the data were processed

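Per the labels' protocols, 20 ng of total RNA was amplified and labelled with Cy3 for 1-colour hybridisation. Per the file headers, Feature Extraction 10.7.1.1 turned each scan (array design 028005) into background-subtracted, detrended spot intensities, not scaled across arrays. A series table that the authors deposited gives each intensity as a ratio to 1 constant per array, judged from its values. Replicate spots were averaged on log2 without outlier spots, a probe was detected where at least 50% of its spots were well above background (a deposited flag), and each array was set to the 75th percentile of probes detected on all 4 arrays. Of 26585 NM_ probes, 26166 were named through RefSeq names of GRCm38.p6, used for names alone. Coordinates are not used here.

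Gaps within a setting were described without a test. limma 3.58.1 in R 4.3.3 (lmFit, eBayes, diffSplice, two-sided, Benjamini-Hochberg 0.05) tested all 3021 genes with 2 or more detected probes, and was first tested on simulated data. Python 3.11.15 with pandas 2.3.3 did the rest. Named genes are the 12 largest repeated gaps, the 6 widest ranges in each setting, the 5 members with the most probes, the 4 that agree best among those with 4 or more, the 8 smallest diffSplice p, up to 3 from each of 8 gene lists, and Sf3b1; others were chosen after their values were seen, and a few that the rule names are not reported here. Members and lists were chosen with earlier results of these data known. Other background corrections, normalizations, filters, accession rules and models were tried. All arrays lie on 1 slide, so no batch could be separated, and the number of arrays limits the precision.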

Additional observations from a re-analysis of the deposited data

Results flagged for a closer look

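In 9 genes the same pair of probes was at least 1.5-fold apart in Sf3b1+/- minus wild type in both settings, but in opposite directions. The gap, in log2 units, was 1.08 in native and -1.56 in transplanted cells for Plagl1, an imprinted zinc finger gene. It was 0.97 and -1.07 for Rbbp6, a ubiquitin ligase that binds RB1, and 1.31 and -0.96 for Cplx2, a complexin. Dennd5b, a Rab exchange factor, had 0.83 and -1.29, Cyria, a regulator of RAC1, 0.87 and -0.81, and Gmps, an enzyme of guanine nucleotide synthesis, 0.77 and -0.78. Wdfy1, an endosomal protein, had 0.75 and -1.17, Atf2, a leucine zipper transcription factor, 0.63 and -0.74, and Cgas, the cytosolic DNA sensor, 0.62 and -0.60. With 1 array per group the difference between settings was not tested.

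The probes that changed sign between settings differed from gene to gene. In Rbbp6, probe A_51_P285413 read 61.0 and 100.9 units on the wild-type and Sf3b1+/- arrays of native cells and 149.6 and 70.7 on those of transplanted cells, while its other probes were not higher in Sf3b1+/- cells in either setting. In Cgas all 3 probes changed sign: the dim A_52_P601782 went from -0.52 in native to 0.31 in transplanted cells, and the brightest, A_66_P137605, from 0.16 to -0.20. In Atf2, 3 of the 4 probes went from higher to lower, A_52_P116253 the most, from 0.45 to -0.81. In Wdfy1 both probes of NM_001111279 changed sign, and in Plagl1 A_55_P1961968 and A_52_P532456 did. The Cplx2 probe that changed sign most, A_51_P485161, was not dim, at 264 to 1544 units.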

How the results depend on the processing

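The counts of members at least 1.5-fold apart in native cells, in transplanted cells, and the same way in both (63, 120 and 17) became 13, 79 and 4 with normexp, whose added offset shrinks log2 differences of dim probes. With only probes of at least 100 units on all 4 arrays, which left 280 members, they were 13, 46 and 5. With only the accession that has the most probes, which left 355 members, they were 40, 77 and 7. Requiring every spot above background or keeping outlier spots gave 63, 120 and 17 again. The series table and the 75th percentile over all probes gave the same counts, but they rescale whole arrays and cannot change a range. With quantile normalization (59, 118 and 15) and cyclic loess (62, 119 and 16) each count stayed within 1.5 times the first. So did the native and transplanted counts with an SD in place of the range and with the 3 brightest probes of each gene, for which the count repeated in both was not computed. limma's diffSplice called 0 genes under every alternative run; without the setting term 7 members had an unadjusted p under 0.05, against 50. Of 184 alternative values of the 12 largest repeated gaps, 166 moved by no more than their spot error and 18 moved. Of the 18, 17 came with normexp and 1 with quantile normalization, and none reversed. Only normexp, quantile normalization and cyclic loess could change these gaps, since the other alternatives keep the same probe values or rescale whole arrays. The 166 are thus mostly values that could not move. The array's own gene names and the overlap of probes on mm9 were not run as alternatives, since the columns they need are not used here, and normexp used the median in place of the mean spot signal. No paired analysis was possible because each group has 1 array and the groups share no more than 1 replicate number; the setting is a term of the diffSplice model. Signal is one limit: below 50 units spots of 1 probe on 1 array had an SD of 0.26.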

Other observations

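Of 77 members whose dimmest probe was at least 1000 units, 6 were at least 1.5-fold apart in transplanted cells and 2 at least 2-fold, Actg1 and Hspa8 (named after their values were seen), while 0 were 1.5-fold apart in native cells. For Actg1 (gamma-actin), the dimmest probe, A_52_P72237, read 6295, 7414, 9784 and 16016 units on the wild-type and Sf3b1+/- arrays of native and then of transplanted cells, and the brightest, A_55_P1970597, read 279865, 256358, 269777 and 238519. The log2 differences in transplanted cells were 0.71 and -0.18. The 2-fold range of Actg1 lay between other probes, A_55_P1985984 (0.77) and A_55_P2114993 (-0.30). For Hspa8, a constitutive chaperone, A_52_P12877 read 10132, 9956, 18514 and 28108 units and A_55_P2080603 read 292401, 247201, 295563 and 214067, with differences of 0.60 and -0.47. Both genes have close relatives or processed pseudogenes that a probe may also read. In both genes the dimmest probe was higher and the brightest lower in Sf3b1+/- transplanted cells. Nsa2, another of the 6, ran the other way, with its dimmest probe, A_55_P2085616, at -0.53 and its brightest, A_55_P2022921, at -0.01. Over all 1512 member probes the transplanted difference changed by -0.02 per log2 unit of signal within a gene, and by 0.0055 after normexp, so its direction turned with the background correction.

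The widest disagreement between settings was that of Cplx2, with a range of 2.90 for transplanted minus native wild-type cells and 0.70 for Sf3b1+/- cells. Ms4a4c, a membrane protein gene of the MS4A family, had 2.15 and 2.50: A_66_P106388 read 84.3, 40, 436 and 243 units, while A_55_P2135980 of the same accession read 52046, 45808, 60859 and 49326. Ms4a4c was thus higher in transplanted cells of both genotypes by its dim probes and nearly flat by its bright one. These comparisons share arrays with the genotype differences.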
